A study of Mus musculus with 5 samples.

Results

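The HoxB cluster holds 10 Hox genes (Hoxb1 to Hoxb9 and Hoxb13) on mouse chromosome 11, which were taken by symbol from the 32285 genes of the count tables. All 10 were found. The study asked how FGF signaling steers mesoderm differentiation of mouse epiblast stem cells (EpiSCs), pluripotent cells that correspond to the epiblast shortly before gastrulation. The EpiSCs were of a 129 background and were differentiated for 3 days in N2B27 medium with 1 µM Chi (CHIR99201, an activator of Wnt signaling) and 8 ng/ml BMP4. Each condition was measured in 1 single-cell RNA sequencing library. The FGF2 series had libraries at 0, 0.75, 3 and 12 ng/ml, and a further library received 30 nM AZD4547, an inhibitor of FGF receptors (FGFRi), for which the labels give no FGF2 dose.

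Hox genes encode homeodomain transcription factors that give cells a position along the head-to-tail axis. Within a cluster, the genes at the 3′ end are activated earlier and reach further towards the head, and those at the 5′ end are activated later and stay nearer to the tail. In the gastrulating embryo they are switched on in the posterior primitive streak, where Wnt and FGF signals and the Cdx factors are known to act upstream of them.

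The genes were arranged in 1 orientation on the plus strand between positions 96194316 and 96368256 of chromosome 11 (GRCm38), over 173.9 kb. Hoxb13 formed the 5′ end at 96194316 to 96197447 and was separated by 74.0 kb from Hoxb9 at 96271457 to 96276595. The 9 genes from Hoxb9 to Hoxb1 were packed into 96.8 kb, with Hoxb8 at 96281905 to 96285315, Hoxb4 at 96318267 to 96321638 and Hoxb1, the 3′ end, at 96365752 to 96368256. No exon of a member overlapped an exon of another gene on the same strand. On the opposite strand, exons of Hoxb5os covered 100 bases of Hoxb5 exons, and exons of Hoxb3os covered 2250 bases of Hoxb3 and 953 of Hoxb2. The kit counted 3′ ends of transcripts, so a level is not divided by gene length.

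Promoter sequence of RefSeq (GRCm38.p6) was matched for 3 of the 10 members, Hoxb8, Hoxb4 and Hoxb1. The 250 bases before the start are printed for Hoxb8 and Hoxb1, since among these 3 genes Hoxb1 had the largest ratio of 12 to 0 ng/ml FGF2 and Hoxb8 is given for comparison as the most 5′ of them. Both are on the plus strand, Hoxb8 at chr11:96281655-96281904 and Hoxb1 at chr11:96365508-96365757. Capitals mark matches on either strand to TTTATG (a Cdx-type site), TGATNNAT (a site type bound by Hox proteins with their Pbx partners) and CTTTGA (a Tcf/Lef-type site), and no matches overlapped each other.
Hoxb8: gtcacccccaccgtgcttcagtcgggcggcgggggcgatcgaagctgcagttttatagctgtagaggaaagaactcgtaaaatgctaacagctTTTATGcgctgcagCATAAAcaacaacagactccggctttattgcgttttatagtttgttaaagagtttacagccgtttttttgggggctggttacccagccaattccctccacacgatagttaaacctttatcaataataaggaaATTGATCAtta
Hoxb1: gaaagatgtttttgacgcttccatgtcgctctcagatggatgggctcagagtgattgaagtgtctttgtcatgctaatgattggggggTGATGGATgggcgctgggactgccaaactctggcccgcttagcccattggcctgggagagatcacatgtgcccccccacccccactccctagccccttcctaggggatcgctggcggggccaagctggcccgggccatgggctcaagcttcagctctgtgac
The Hoxb8 window held 2 matches to the Cdx-type letters, beginning 157 and 143 bases before the start, and 1 match to the Pbx-Hox letters 11 bases before it. The Hoxb1 window held the Pbx-Hox match TGATGGAT 162 bases before the start and none to the other motifs, and the Hoxb4 window held no match to any of them. Of 32544 promoter windows of this length, 10.8% held the Cdx-type letters, 7.66% the Pbx-Hox letters and 13.9% the Tcf/Lef letters. A match describes the letters only.

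After filtering, the libraries held 1696 to 2725 cells with 47824660 to 81538748 UMIs (unique molecular identifiers, which count captured transcripts). Of these UMIs, 157190 came from HoxB genes. Only 7 of 10646 distinct barcodes occurred in more than 1 library. Levels are given as CPM (UMIs of a gene per 1000000 UMIs of the summed cells), with exact Poisson intervals at 95%. With 1 library per condition there was no test between conditions, and all intervals cover counting error only. A level is called higher or lower where the interval of the ratio excluded 1.

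The summed HoxB level was lowest with FGFRi and highest at 3 ng/ml FGF2. It was 22.1 CPM (20.8 to 23.5) with FGFRi and 347 CPM (342 to 352) without FGF2. With FGF2 at 0.75, 3 and 12 ng/ml it was 571 (566 to 576), 689 (682 to 695) and 641 CPM (635 to 647). From FGFRi to 0 ng/ml the sum was 15.7-fold higher (14.7 to 16.7). The next steps were much smaller, 1.65-fold (1.62 to 1.67) to 0.75 ng/ml and 1.21-fold (1.19 to 1.22) to 3 ng/ml, and 12 ng/ml lay 1.07-fold (1.06 to 1.09) below 3 ng/ml.

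**Figure D1:**
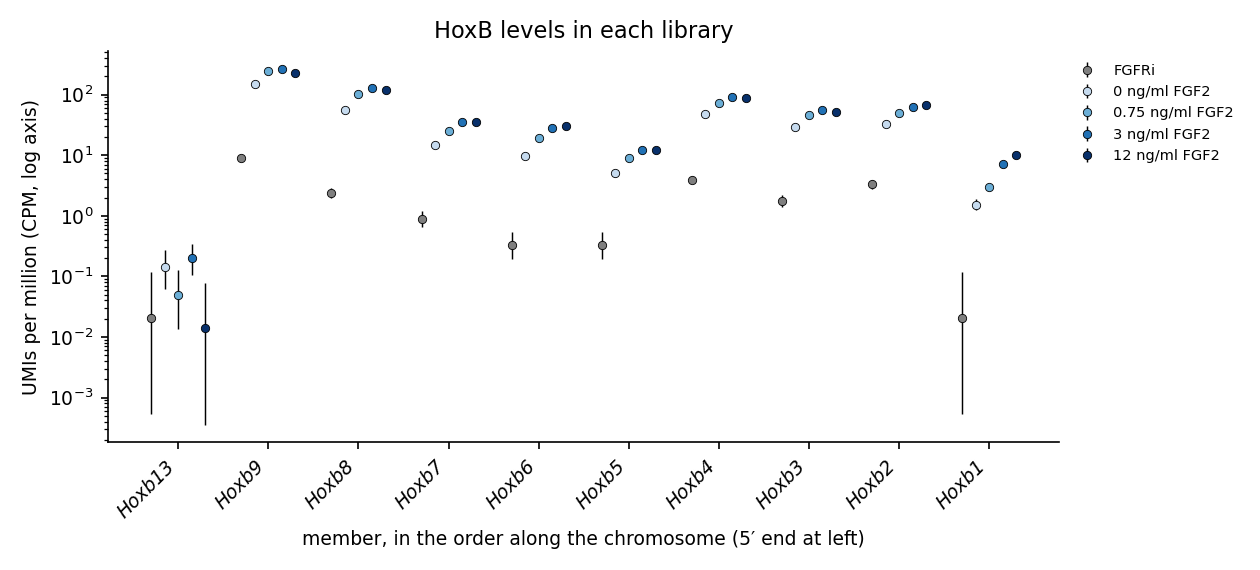
Level of each HoxB member in each library in CPM on a log axis, with exact Poisson intervals at 95% and the 5′ end of the cluster at the left. Hoxb9 was the highest member in all 5 libraries, the levels dipped to Hoxb5 in the middle of the cluster, and Hoxb13 stayed near 0.

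Along the chromosome the levels did not fall evenly from an end. Hoxb13, the most 5′ member, which in embryos appears late and at the tail end, was almost undetected, with 1 UMI with FGFRi and 8, 4, 13 and 1 UMIs in the order of the doses. Its neighbor Hoxb9, known for its part in patterning the thoracic skeleton, was the most abundant member, with 9.07 CPM with FGFRi and 150.1, 241, 266 and 228 CPM along the doses. The step from the highest member to a nearly silent gene thus lay across the 74.0 kb gap.

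Hoxb8, a gene of posterior mesoderm and spinal cord, had 2.40, 56.8, 102, 129 and 118 CPM in the same order of libraries. Hoxb7 had 0.899, 14.6, 25.5, 35.2 and 34.7 CPM. Hoxb6, a gene known from lateral plate mesoderm, had 0.335, 9.65, 19.5, 27.8 and 30.8 CPM. Hoxb5 had 0.335, 5.02, 9.14, 12.3 and 12.1 CPM, the lowest of the members from Hoxb9 to Hoxb2 along the doses, and with FGFRi it was level with Hoxb6 at 16 UMIs each.

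Levels were higher again at Hoxb4, a gene of the hindbrain and of blood precursors, with 3.97, 47.2, 73.3, 91.9 and 86.4 CPM. Hoxb3 had 1.78, 29.4, 46.5, 55.6 and 52.4 CPM. Hoxb2, which acts with Hoxb1 in hindbrain segmentation, had 3.30, 32.5, 50.1, 63.5 and 68.6 CPM. Hoxb1 was a single UMI with FGFRi and then 1.53, 2.99, 7.12 and 9.99 CPM, so that it stayed the lowest member after Hoxb13 in every FGF2 library.

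By a fixed rule of size, a gene was called where it reached 10 CPM in either library of a pair and differed at least 2-fold. From FGFRi to 0 ng/ml, 6 of the 10 members were called higher (Hoxb9, Hoxb8, Hoxb7, Hoxb4, Hoxb3 and Hoxb2), where 2.62% of all 8445 genes at that level were called higher and 5.38% lower. The other 4 members did not reach 10 CPM in either library. The median log2 difference was 3.015 for all 10 members and 0.00 for all genes at that level (each on log2(CPM + 1)). The 6 called members reached 10 CPM only at 0 ng/ml, so none of them could have been called lower. Their count and their own median of 3.36 were thus favored by the filter. The largest ratios with more than 3 UMIs in both libraries were 28.8-fold (17.6 to 50.8) for Hoxb6 and 23.6-fold (19.6 to 28.7) for Hoxb8, and the smallest were 11.9-fold (10.2 to 13.8) for Hoxb4 and 9.84-fold (8.36 to 11.6) for Hoxb2. For Hoxb1 the ratio to the single UMI was 73.2 with an interval of 12.8 to 2926.

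From 0 to 0.75 ng/ml, 1 of 10 members was called higher, Hoxb6 at 2.02-fold (1.83 to 2.23), where 0.308% of genes were called higher and 1.41% lower. This call ended with equal weight per cell (10.7 and 19.9 CPM) and without the deepest 5% of cells. It was also favored by the filter, as Hoxb6 had 9.65 CPM at 0 ng/ml and could not have been called lower. From 0.75 to 3 ng/ml, 0 of 10 members were called (background 0.336% higher and 0.523% lower), although all 10 were higher by their intervals (Hoxb13 with 4 and 13 UMIs). Among the 8 members that reached 10 CPM the ratios ran from 1.10-fold (1.08 to 1.12) for Hoxb9 to 1.43-fold (1.33 to 1.53) for Hoxb6. From 3 to 12 ng/ml, 0 of 10 were called (background 0.0631% higher and 0.0252% lower). Over the whole range from 0 to 12 ng/ml, 5 members were called higher (Hoxb8, Hoxb7, Hoxb6, Hoxb5 and Hoxb2), against 1.87% of all genes higher and 4.04% lower. Of these, Hoxb6 and Hoxb5 reached 10 CPM only at 12 ng/ml, so the filter favored their calls. With equal weight per cell, Hoxb8 (65.6 and 124 CPM) and Hoxb2 (36.2 and 71.0 CPM) fell short of 2-fold, and 4 members were called, Hoxb7, Hoxb6, Hoxb5 and Hoxb1. The share of all genes was not counted with this weight. On summed UMIs, the median log2 difference was 1.05 for the 8 members at 10 CPM or more, 1.05 for all 10 members and 0.01 for all genes.

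The library in which a member was highest differed along the cluster. With 1 library per dose, the small differences given here cannot be told from spread between libraries. Atp5g1, a gene outside the cluster, also differed by its interval, at 1.05-fold (1.03 to 1.07) from 3 to 12 ng/ml. Hoxb9, Hoxb8, Hoxb4 and Hoxb3 were highest at 3 ng/ml and lower at 12 ng/ml by 1.16-fold (1.14 to 1.19), 1.10-fold (1.07 to 1.13), 1.06-fold (1.03 to 1.10) and 1.06-fold (1.01 to 1.11). For Hoxb7 and Hoxb5 the values at 3 and 12 ng/ml did not differ beyond counting error, with ratios of 12 to 3 ng/ml of 0.987 (0.932 to 1.04) and 0.980 (0.889 to 1.08). Hoxb6, Hoxb2 and Hoxb1 were highest at 12 ng/ml, by 1.11-fold (1.04 to 1.18), 1.08-fold (1.04 to 1.13) and 1.40-fold (1.25 to 1.58) over 3 ng/ml.

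**Figure D2:**
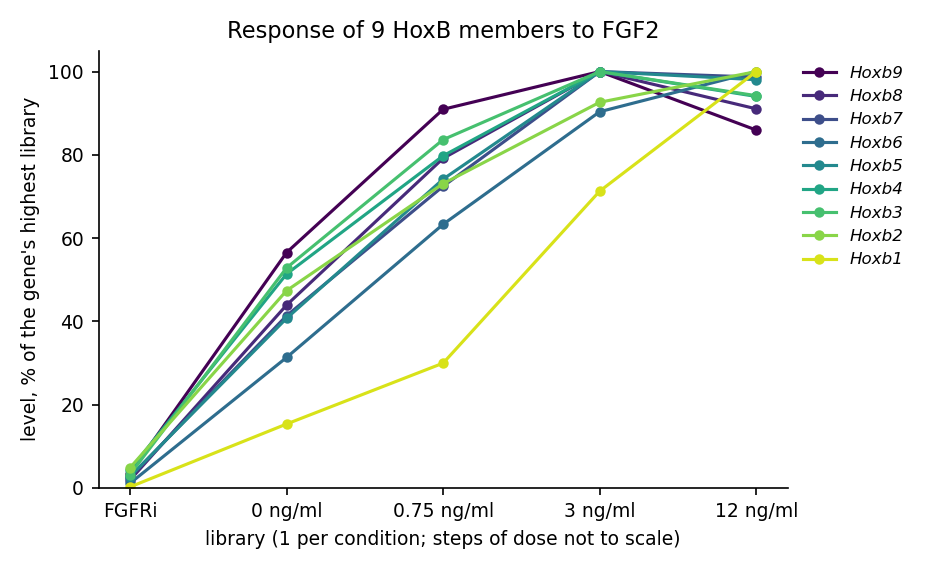
Level of each member from Hoxb9 to Hoxb1 in each library, as a percentage of the CPM in its highest library, with 1 library per condition. At 0 ng/ml Hoxb9 was at 56.5% of its highest level and Hoxb1 at 15.3%, and the Hoxb1 line stays below the others up to 3 ng/ml.

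The level without FGF2 relative to each gene's highest level set Hoxb1 apart. At 0 ng/ml, Hoxb9 stood at 56.5% of its highest level, Hoxb3 at 52.8%, Hoxb4 at 51.4% and Hoxb2 at 47.4%. Hoxb8, Hoxb7 and Hoxb5 stood at 43.9%, 41.3% and 40.7%, and Hoxb6 at 31.3%. Hoxb1 stood at 15.3% and was 6.52-fold higher (5.21 to 8.25) at 12 than at 0 ng/ml, while the next largest ratio among the members from Hoxb9 to Hoxb2 was 3.19-fold (2.91 to 3.51) for Hoxb6. The order of the response was therefore not the order of the genes.

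The mean paralog number, the average of the numbers in the gene names weighted by UMIs, summarizes which end of the cluster the transcripts came from. It was 6.28 with FGFRi and 6.73, 6.78, 6.64 and 6.45 along the doses. The FGFRi value rested on few cells, as 67 cells gave 64.1% of the HoxB UMIs of that library. With each HoxB-positive cell weighted equally, it was 5.31. The share of HoxB UMIs from Hoxb6 to Hoxb13 was 57.5% with FGFRi, then 66.7, 68.1, 66.5 and 64.2%. In the whole libraries, the mix of transcripts thus moved towards the 3′ end between 0.75 and 12 ng/ml. Hoxb9 went from 42.3 to 35.6% of HoxB UMIs and Hoxb2 from 8.78 to 10.7%. The cell clusters described below did not all move this way. With each HoxB-positive cell weighted equally, the difference in mean paralog number from 0 to 12 ng/ml was -0.0348 in place of -0.28, and that from 0.75 to 3 and from 3 to 12 ng/ml was -0.0790 and -0.30.

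Other transcripts of the interval followed the members only in part. The annotation places 19 genes between the ends of the cluster, of which 14 were analyzed here. The antisense RNA Hoxb5os, which starts near Hoxb5 and runs across Hoxb6, had 6.23 CPM with FGFRi and 102, 136, 135 and 112 CPM along the doses, so that it was 1.10-fold higher (1.06 to 1.14) at 12 than at 0 ng/ml where Hoxb5 itself was 2.41-fold higher (2.10 to 2.76). Hoxb3os had 3.12, 19.9, 32.5, 42.7 and 42.2 CPM, with 2.13-fold (1.99 to 2.28) over the same range. The lincRNA Gm53, in the gap between Hoxb13 and Hoxb9, had 1 UMI with FGFRi and 1.85, 2.44, 2.89 and 2.47 CPM. Gm11536 had at most 5 UMIs in a library. The strand setting of the counting is not given in the sources used here.

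Outside the cluster the protein-coding neighbors did not share the pattern. Cbx1, a heterochromatin protein gene, had 221, 259, 284, 285 and 282 CPM, and Atp5g1, a subunit of ATP synthase, had 388, 399, 406, 437 and 459 CPM from FGFRi to 12 ng/ml. Snx11 lay between 5.36 and 7.49 CPM. Calcoco2, Ttll6 and Skap1 had at most 12 UMIs in any library.

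HoxB made up a larger part of all Hox UMIs at each step from FGFRi to the highest dose. It held 17.3% of them with FGFRi and 34.1, 38.6, 40.7 and 41.6% along the doses. The HoxA sum went from 47.2 CPM with FGFRi to 221, 320, 337 and 279 CPM, HoxC from 30.8 to 286, 381, 399 and 329 CPM, and HoxD from 28.0 to 163, 209, 266 and 293 CPM. The highest genes were Hoxa7, which peaked at 0.75 ng/ml with 127 CPM, Hoxc8, which peaked at 3 ng/ml with 162 CPM, and Hoxd9, which peaked at 12 ng/ml with 143 CPM. Of the 29 Hox genes outside HoxB, 14 reached 10 CPM with FGFRi or at 0 ng/ml. By the rule of size 13 of these were called higher, where 6 of 6 HoxB members and 2.62% of all genes were. These HoxB members passed the filter only through the 0 ng/ml library, so none could have been called lower. For each of the 3 steps between the doses, 0 of the Hox genes outside HoxB were called in either direction. From 0 to 12 ng/ml 1 of 16 was called higher, where 5 of 8 HoxB members and 1.87% of all genes were. Of these 5, Hoxb8 and Hoxb2 were near the limit, at 2.07- and 2.11-fold, and fell short with equal weight per cell. Hoxb6 and Hoxb5 passed the filter only through the 12 ng/ml library.

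Known regulators and partners of Hox genes were taken from a list of 34. From FGFRi to 0 ng/ml, 6 were called higher and 2 lower of 26 that reached 10 CPM, where 2.62% of all genes were called higher and 5.38% lower. From 0 to 12 ng/ml, 5 were called higher and 2 lower of 29, where the shares of all genes were 1.87% and 4.04%. Cdx2, a caudal factor that binds Hox clusters, had 4.64 CPM with FGFRi and 109, 188, 218 and 185 CPM along the doses, while Cdx1 and Cdx4 had at most 0.201 CPM. T (brachyury) had 0.753, 26.7, 92.7, 205 and 208 CPM, and Fgf8 had 2.43, 24.5, 72.3, 156 and 160.4 CPM. Tbx6 had 0.230, 5.86, 11.5, 30.4 and 49.0 CPM, and Wnt3a had no UMI with FGFRi and then 1.23, 4.54, 12.7 and 11.4 CPM.

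The 2 called lower in both comparisons were the Hox cofactor genes Meis1 and Meis2, a count too small to set apart from the shares of all genes. Meis1 had 30.3 CPM with FGFRi and 13.03, 4.66, 2.07 and 2.60 CPM along the doses, and Meis2 had 237, 96.9, 54.1, 34.7 and 45.4 CPM. Cyp26a1, which degrades retinoic acid, had 1.99, 9.96, 20.7, 35.9 and 37.8 CPM. Rarg, Gdf11 and Lin28a were called higher from FGFRi to 0 ng/ml only among the pairs, with 12.2 and 25.1, 9.45 and 25.0, and 49.2 and 154 CPM.

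In single cells, the share of cells with a HoxB UMI and the HoxB UMIs of such cells were counted. After thinning each cell to 5000 UMIs, 6.41% of cells (5.29 to 7.68) had a HoxB UMI with FGFRi and 51.8% (49.4 to 54.2) without FGF2. Along the doses above 0 the share was 74.7% (73.0 to 76.3), 87.0% (85.5 to 88.4) and 84.7% (83.2 to 86.1). Without thinning the shares were 17.2, 69.6, 87.2, 94.7 and 94.0%. At 10000 UMIs, cells with a HoxB UMI held on average 2.54 HoxB UMIs with FGFRi and 6.51, 7.24, 7.84 and 7.50 along the doses. At this same depth the share of cells went from 58.5% at 0 ng/ml to 91.1% at 3 ng/ml, while the content of a positive cell went from 6.51 to 7.84 UMIs. The share with a UMI also rises with the level per cell. It therefore cannot separate more cells from more transcripts per cell.

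**Figure D3:**
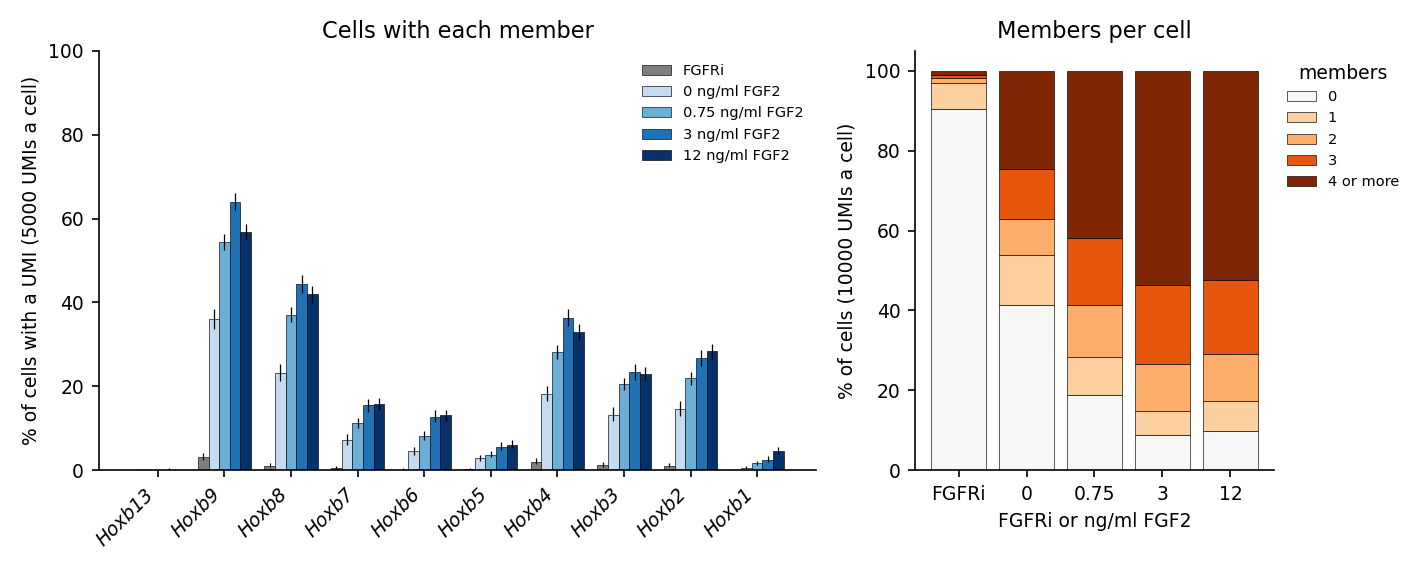
Left, share of cells with at least 1 UMI of each member after thinning to 5000 UMIs, with exact binomial intervals at 95%. Right, share of cells by the number of members detected after thinning to 10000 UMIs. Hoxb9 was found in 64.0% of cells at 3 ng/ml, and the share of cells with 4 or more members was 0.963% with FGFRi and 53.6% at 3 ng/ml.

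Hoxb9 was found in 3.23, 36.0, 54.4, 64.0 and 56.8% of thinned cells from FGFRi to 12 ng/ml, and Hoxb1 in 0.0588, 0.590, 1.65, 2.54 and 4.66%. Hoxb13 was found in 0 of 1701 cells with FGFRi and 0 of 2406 at 12 ng/ml, which allows shares of cells with a UMI of up to 0.176% and 0.125%. Cells with HoxB transcripts held several members: at 10000 UMIs a cell with any held 1.64 members on average with FGFRi and 3.16, 3.49, 3.8 and 3.77 along the doses. The most 5′ member detected was Hoxb9 in 42.8% of such cells with FGFRi and in 74.6, 81.7, 84.9 and 79.4% of them along the doses. With FGFRi it was Hoxb4 in 22.0% and Hoxb2 in 18.2%.

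Along the doses, most pairs of members from Hoxb9 to Hoxb1 were found in the same cells more often than their separate shares would give. This held for pairs that were neighbors on the chromosome and for most of those that were not. Over the 8 neighboring pairs from Hoxb9 to Hoxb1, the ratio of cells with both to the product of the shares had medians of 2.14, 1.41, 1.16 and 1.21 along the doses. For the pairs that are not neighbors, 26 at 0 ng/ml and 28 at each higher dose for which the products of the shares within clusters gave at least 5 cells, the medians were 1.95, 1.28, 1.13 and 1.12. Computed within the cell clusters described next and then summed, the medians were 1.30, 1.11, 1.10 and 1.12 for neighbors and 1.18, 1.08, 1.07 and 1.06 for the others, and the difference was not tested. A ratio of this kind cannot exceed the inverse of the larger share of a pair. At 10000 UMIs Hoxb9 was in 43.7% of cells at 0 ng/ml and in 77.4% at 3 ng/ml. The lower medians at higher doses therefore cannot be read as looser co-detection. At 0 ng/ml the neighboring pairs ranged from 1.16 for Hoxb8 and Hoxb7 to 1.64 for Hoxb6 and Hoxb5 within clusters. The lowest pair from 0.75 ng/ml upwards was Hoxb5 with Hoxb1, at 0.598, 0.669 and 0.732 in the whole libraries. Within clusters this pair had 0.447, 0.722 and 0.703, from 4, 10 and 17 cells with both. At 0 ng/ml the same pair was instead the highest of those from Hoxb9 to Hoxb1. It had 4.44 in the whole library and 2.65 within clusters, from 6 cells with both. The cells are few and no interval was computed, so no steady direction can be read for this pair.

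Cells with Hoxb1, the most 3′ member, were not devoid of the 5′ members. After thinning to 10000 UMIs, 79 cells at 0.75 ng/ml had a Hoxb1 UMI, and 92.4% of them (84.2 to 97.2) also had Hoxb9, against 65.6% of the cells without Hoxb1. Among 145 such cells at 3 ng/ml the share was 88.3% (81.9 to 93.0) against 76.6%, and among 215 at 12 ng/ml it was 75.3% (69.0 to 81.0) against 71.3%, so that the excess of Hoxb9 was within counting error at the highest dose. Hoxb4 was found in 74.7, 74.5 and 63.7% of the cells with Hoxb1 at these doses, against 42.5, 53.6 and 50.5% of those without, and Hoxb2 in 51.9, 57.9 and 58.6% against 35.0, 43.6 and 44%. For Hoxb5 at 12 ng/ml the shares were 7.91% (4.67 to 12.4) and 11.1%.

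To ask which cells carried the members, the cells were clustered with all Hox genes left out, which gave 6 clusters numbered by size. Cluster 0 was mesenchyme-like (led by Tnc, Tagln and Ccn4), with 7 of 8 mesenchyme markers at least 2-fold over the other cells. This name describes the whole cluster, in which FGFRi cells numbered 1574 of 2873. In a finer clustering (resolution 0.5), all 175 of its cells at 12 ng/ml lay in finer cluster 3, led by Sfn, Krt19 and Pou3f1. So did 497 of its 621 cells at 0 ng/ml. Tnc and Acta2 were instead among the leading genes of finer cluster 5, which held 790 of its 1574 FGFRi cells. A further 685 of them lay in finer cluster 6, led by Gjb2, Igfbp2 and Mal. Cluster 1 was caudal epiblast-like (Epha5, Greb1 and Trim2), with 3 of 8 markers, cluster 2 was presomitic mesoderm-like (Frzb, Tbx6 and 2610528A11Rik), with 5 of 10, cluster 3 was surface ectoderm-like (Dlx5, Rab25 and Upk1a), with 6 of 8, and cluster 5 was extraembryonic ectoderm-like (Gm9112, Pkib and Esx1), with 3 of 6. Cluster 4 was led by Sprr2a3, Psmb8 and Igfbp3 and had 5 of 8 primitive streak markers at least 2-fold over the rest. It also had 3 of 8 caudal epiblast markers (T, Nkx1-2 and Wnt3a), as many as cluster 1 (Nkx1-2, Fgf17 and Epha5). None of its streak or caudal epiblast markers was among its 10 leading genes, and cluster 4 was left unnamed. In the finer clustering, however, T was among the 10 leading genes of finer cluster 4 (473 CPM against 70.4 in the rest). That finer cluster held 450 of the 453 cells of cluster 4 at 12 ng/ml. The cluster names were rebuilt from markers and are not the study's.

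HoxB transcripts were concentrated in the caudal epiblast-like and presomitic mesoderm-like cells. Without FGF2 the sum was 961 CPM (930 to 993) in cluster 2 and 813 (798 to 829) in cluster 1. At 0.75, 3 and 12 ng/ml this order was turned, with 860, 782 and 771 CPM in cluster 2 and 937, 937 and 888 CPM in cluster 1. The surface ectoderm-like cells had 343, 502, 683 and 649 CPM along the doses, and cluster 4 had 112 CPM in 20 cells and then 279, 411 and 361 CPM. Cluster 0 had 8.05 CPM with FGFRi and 61.0, 101, 102 and 158 CPM along the doses. At each dose most of its cells lay in the finer cluster led by Sfn, Krt19 and Pou3f1. The extraembryonic ectoderm-like cells had 26.6 and 50.2 CPM at 0 and 0.75 ng/ml, the libraries in which they numbered at least 50. Cluster 0 held 92.5% of the cells with FGFRi and 36.6, 14.3, 5.36 and 7.27% along the doses, while cluster 2 held 0, 7.02, 12.2, 26.8 and 45.4%.

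Within a library the share of thinned cells with a HoxB UMI differed widely between clusters of similar depth. At 0 ng/ml it was 94.2% in the caudal epiblast-like cells (median 28666 UMIs) and 5.93% (2.42 to 11.8) in the extraembryonic ectoderm-like cells (median 31328 UMIs), the lowest cluster. The lowest cluster with at least 50 cells held 3.37% with FGFRi (cluster 0, median 24590.5 UMIs). From 0.75 ng/ml upwards it held 19.1% (extraembryonic ectoderm-like, 25359 UMIs), 27.2% (cluster 0, 34570 UMIs) and 36.0% (cluster 0, 34342 UMIs). The part of free RNA in it was not tested.

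**Figure D4:**
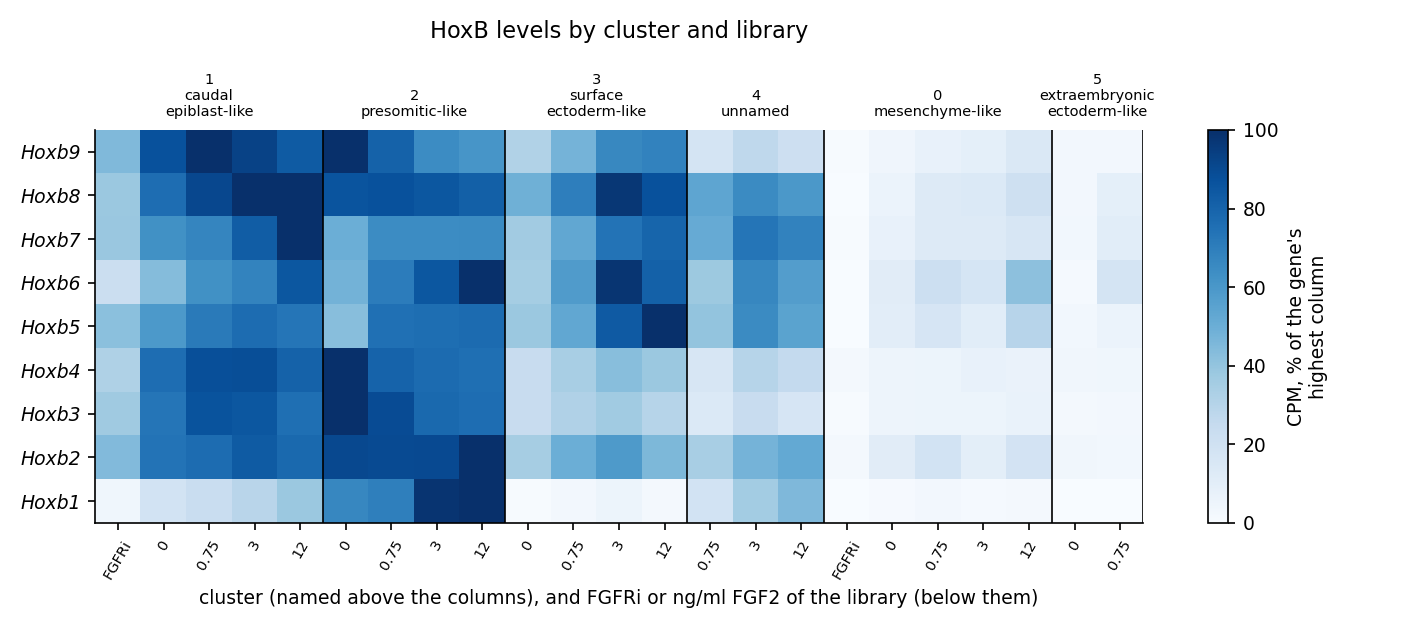
CPM of each member from Hoxb9 to Hoxb1 in each cluster and library with at least 50 cells, as a percentage of the gene's highest column. Clusters 1 and 2 are dark for most members, Hoxb1 is dark only in cluster 2, and the mesenchyme-like and extraembryonic ectoderm-like columns are pale.

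Hoxb1 was the member most tied to the presomitic mesoderm-like cells, where it had 10.9, 11.4, 16.1 and 16.4 CPM along the doses. The caudal epiblast-like cells had 3.08, 3.85, 4.79 and 6.23 CPM of it, and cluster 4 had 3.04, 5.89 and 7.42 CPM from 0.75 ng/ml upwards, values whose intervals overlapped with those of the caudal epiblast-like cells at each dose. At 12 ng/ml the surface ectoderm-like cells, with a HoxB sum of 649 CPM, held 2 Hoxb1 UMIs. Cluster 2 gave 47.1, 45.9, 61.5 and 73.0% of the Hoxb1 UMIs along the doses, from 7.02, 12.2, 26.8 and 45.4% of the cells. Across the 23 groups of a library and a cluster with at least 50 cells, the correlation of log2(CPM + 1) between members was highest for Hoxb4 and Hoxb3 (Pearson's r = 0.99) and lowest for Hoxb6 and Hoxb1 (r = 0.63). These groups share libraries and depth, so r is a description.

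The response to FGF2 was not the same in all clusters. From 0 to 12 ng/ml the sum was 1.89-fold higher (1.81 to 1.98) in the surface ectoderm-like cells. It was 2.59-fold higher (2.38 to 2.80) in cluster 0, whose cells at these doses lay mostly in the finer cluster led by Sfn, Krt19 and Pou3f1. At 0 ng/ml, 44 and 79 of its 621 cells lay in finer clusters 5 and 6, and all 175 at 12 ng/ml lay in finer cluster 3. In finer cluster 3, which also holds cells of other clusters, the sum was 2.03-fold higher (1.91 to 2.16). In the presomitic mesoderm-like cells the sum was 1.25-fold lower, with a ratio of 0.802 (0.774 to 0.831) and 119 cells at 0 ng/ml. In the caudal epiblast-like cells it was 1.09-fold higher (1.06 to 1.12), a direction that turned with a finer clustering (ratio 0.958, 0.931 to 0.984). From 0.75 to 12 ng/ml the mean paralog number went from 6.93 to 7.24 in the surface ectoderm-like cells and from 6.39 to 6.94 in cluster 0. It went from 6.52 to 6.203 in the presomitic mesoderm-like cells and from 6.83 to 6.73 in the caudal epiblast-like cells. In cluster 4 it went from 6.65 to 6.36. The part of the cluster shares in the move of the whole libraries was not tested.

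In the presomitic mesoderm-like cells the members went different ways. Hoxb9 went from 431 to 261 CPM (ratio 0.606, 0.574 to 0.639), Hoxb4 from 152 to 114 CPM (0.754, 0.690 to 0.825) and Hoxb3 from 97.1 to 74.0 CPM (0.762, 0.682 to 0.854). Hoxb6 was higher, from 18.1 to 37.8 CPM (2.09-fold, 1.63 to 2.70), Hoxb5 from 7.47 to 13.5 CPM (1.81-fold, 1.23 to 2.75) and Hoxb1 from 10.9 to 16.4 CPM (1.502-fold, 1.09 to 2.12). In the surface ectoderm-like cells Hoxb9 was instead 2.16-fold higher (2.01 to 2.32), from 136 to 293 CPM. Hoxb6 was higher at 12 ng/ml in all 4 clusters with at least 50 cells at both doses, by 1.95- to 3.69-fold.

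**Figure D5:**
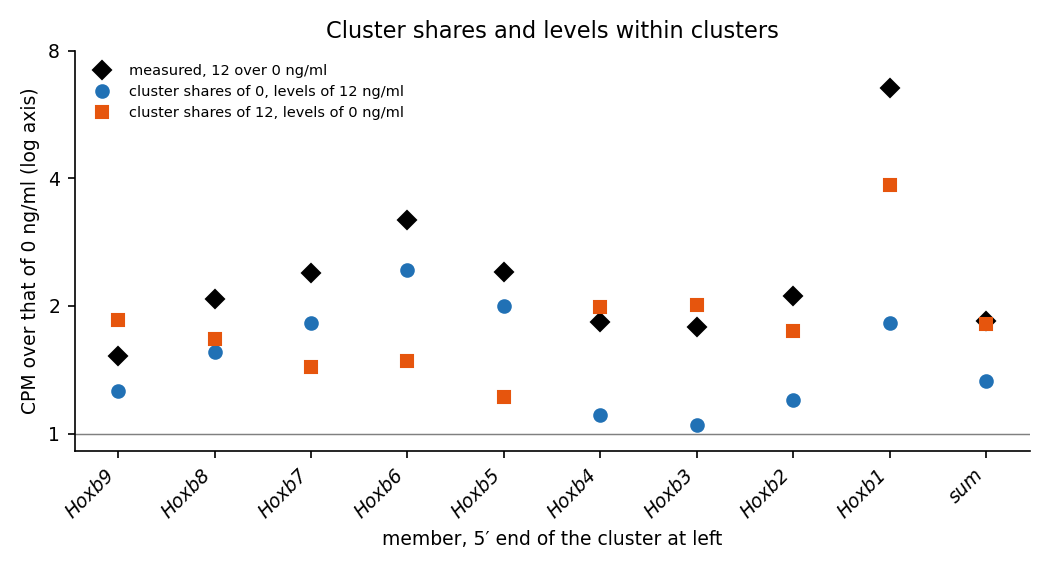
Ratio of the CPM at 12 ng/ml to that at 0 ng/ml for each member and the sum (diamonds, log axis), the ratio with the cluster shares of 0 ng/ml and the levels of 12 ng/ml (circles), and the ratio with the cluster shares of 12 ng/ml and the levels of 0 ng/ml (squares). For Hoxb4 and Hoxb3 the squares lie near the diamonds, and for Hoxb7, Hoxb6 and Hoxb5 the circles lie above the squares.

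The change from 0 to 12 ng/ml was therefore recomputed with only the shares of the clusters, or only the levels inside them, taken from 12 ng/ml. The resulting values are not parts that add up to the measured change. With the cluster shares of 12 ng/ml and the levels of 0 ng/ml the sum would be 630 CPM, against 347 and 641 CPM measured at the ends, and with the shares of 0 ng/ml and the levels of 12 ng/ml it would be 462 CPM. For Hoxb4 and Hoxb3 the shares alone gave 1.99- and 2.01-fold and the levels alone 1.11- and 1.05-fold. For Hoxb6, Hoxb5 and Hoxb7 the levels alone gave 2.44-, 2.001- and 1.82-fold and the shares alone 1.49-, 1.22- and 1.44-fold. Cluster 4 had 20 cells at 0 ng/ml and cluster 5 had 9 at 12 ng/ml.

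From FGFRi to 0 ng/ml the shares alone gave 7.45-fold and the levels alone 4.002-fold, against 15.7-fold measured. Cluster 2 had 0 cells with FGFRi, so the value for the shares alone used its level at 0 ng/ml (961 CPM). That value is therefore not built from FGFRi levels only, and cluster 4 had 1 FGFRi cell. With FGFRi, 64.1% of the HoxB UMIs came from the 67 cells of cluster 1, 3.94% of the library. Their sum was 414 CPM (384 to 447) against 813 (798 to 829) in that cluster at 0 ng/ml. In the finer clustering, 48 of these 67 cells lay in finer cluster 3 and only 19 in finer cluster 0, led by Epha5. The caudal epiblast-like name therefore does not hold for most of them. In cluster 0 the sum was 8.05 CPM (7.24 to 8.92) with FGFRi and 61.0 CPM (57.9 to 64.3) at 0 ng/ml. The finer clustering divided the cells of cluster 0, with most of those of the FGFRi library in finer clusters 5 and 6. Most of those at 0 ng/ml lay in finer cluster 3. The sum was higher at 0 ng/ml in finer cluster 5, with 10.2 and 26.7 CPM (2.62-fold, 1.86 to 3.62), and in finer cluster 6, with 4.51 and 19.97 CPM (4.42-fold, 3.06 to 6.34). In finer cluster 3 it was 120.4 CPM with FGFRi and 111 CPM at 0 ng/ml (ratio 0.918, 0.833 to 1.01). However, 48 of its 146 FGFRi cells and 67 of its 578 cells at 0 ng/ml came from the caudal epiblast-like cluster. The surface ectoderm-like finer cluster 2 had 25.0 CPM in 22 FGFRi cells and 357 CPM at 0 ng/ml (14.3-fold, 7.76 to 29.8). The extraembryonic ectoderm-like finer cluster 7 had 10.1 CPM in 36 FGFRi cells and 28.2 CPM at 0 ng/ml (2.81-fold, 1.47 to 6.01). With the finer clusters the levels alone gave 1.84-fold and the shares alone 10.3-fold. The latter again used the 0 ng/ml level for the presomitic mesoderm-like cluster, which had no FGFRi cells.

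Cells were also classed by single marker genes, by whether a UMI of the marker was left after thinning to 10000 UMIs, and levels were taken from all UMIs of each class. The sum was higher in cells with a Cdx2 UMI than in those without in 5 of 5 libraries, from 138 against 17.8 CPM with FGFRi (7.76-fold) to 706 against 453 CPM at 12 ng/ml (1.56-fold). It was lower in cells with a UMI of Cdh1, the epithelial E-cadherin, in 5 of 5 libraries, with ratios of 0.205 to 0.596. With Cdh2, the mesenchymal N-cadherin, it was higher in 5 of 5 libraries, by 1.22- to 2.24-fold.

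With Tbx6, a factor of presomitic mesoderm, the sum was higher in the 4 libraries of the FGF2 series, by 1.24- to 3.08-fold, and Hoxb1 by 2.28- to 10.7-fold. With T it was higher in 3 of the 4, at 2.68-fold at 0 ng/ml and 1.04-fold at 12 ng/ml, while the ratio for 3 ng/ml was 1.01 (0.990 to 1.03). With Hand1, a factor of lateral and extraembryonic mesoderm, it was lower in 4 of 5 libraries, by ratios from 0.468 at 0 ng/ml to 0.921 at 12 ng/ml. With FGFRi the ratio was 1.14. Not all members went this way. Hoxb9, Hoxb8 and Hoxb4 were lower with Hand1 in 4 of 5 libraries. Hoxb2 was higher in 3 and lower in 2 of 5 (ratios 0.568 to 1.45), and Hoxb6 higher in 2 and lower in 2 of 4 (0.673 to 1.35). With Cdx2, Hoxb1 was the member that stood apart, as it was higher in 2, lower in 1 and not distinguishable in 1 of the 4 FGF2 libraries.

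The genes whose levels were most like the HoxB sum across the 23 groups of a library and a cluster, of 8732 compared, were Pclaf, a PCNA-binding factor of DNA replication (Pearson's r = 0.97), Sart3, a splicing factor (r = 0.97), Hmga1b, a chromatin protein (r = 0.95), Selenoh (r = 0.95) and Sall3, a zinc finger factor (r = 0.95). For Cdx2 r was 0.86, for T 0.72, and for Cdh1 -0.63.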

How the data were processed

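Libraries were made with a 10x Genomics 3′ kit. The authors aligned reads to mm10 and counted UMIs with Cell Ranger (version 5.0.1 in the matrix headers, an earlier version in the methods). The deposited matrices give unnormalized UMI counts for each gene and barcode. Of 15375 barcodes, 10653 with at least 2500 genes and at most 10% mitochondrial UMIs were kept, and 321559590 UMIs. Doublets were not called here, and the methods name no step that removes them. UMIs were summed per library (CPM), with exact Poisson, conditional and Clopper-Pearson intervals at 95%. A gene without UMIs was limited at 3 counts. Cells under 10000 UMIs (9 to 39 per library) were left out of thinning to that depth. Clustering (Scanpy 1.11.5, leidenalg 0.10.2, Python 3.11.15) used 2438 variable genes, 50 components, 15 neighbors and Leiden resolution 0.33, without 48 rows named as Hox genes or Hox transcripts. Positions came from GENCODE vM21. The rule of size and the intervals were tested on simulated data. Named were the members, the genes of the interval with 3 coding neighbors each side, the highest gene of each other Hox cluster, listed regulators past the rule of size, the 5 genes most like the sum and the 3 leading genes of each cluster. Members and lists were chosen with earlier results of these data known. edgeR 4.0.16 (R 4.3.3) gave TMM factors.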

Additional observations from a re-analysis of the deposited data

Results flagged for a closer look

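Opposite directions in different cell classes were singled out for the change from 0 to 12 ng/ml FGF2. The log2 ratio of the summed HoxB level was -0.32 in the presomitic mesoderm-like cluster and 0.92 in the surface ectoderm-like cluster. For Hoxb9 alone it was -0.72 and 1.11. Each value compares 1 library with 1 library, and the difference between the clusters was not tested.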

How the results depend on the processing

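The directions of the summed HoxB level between libraries held under all alternatives run, with log2 ratios of 3.90 to 3.98 from FGFRi to 0 ng/ml. With at most 5% mitochondrial UMIs the log2 ratio was 0.79 (0.75 over 0 ng/ml, 0.72 as reported), -0.12 (12 over 3, -0.10) and 0.94 (12 over 0, 0.89), without the deepest 5% of cells 0.68 and 0.85 for the first and last, and with equal weight per cell 0.62 and 0.81. Members past the rule of size numbered 6, 1 and 5 as reported from FGFRi to 0, 0 to 0.75 and 0 to 12 ng/ml. With a minimum of 50 CPM they numbered 2, 0 and 2. With no minimum they numbered 10 from FGFRi to 0 ng/ml and 2 from 0.75 to 3 ng/ml. With a ratio of 1.5 they numbered 7 from 0 to 0.75 ng/ml and 8 from 0 to 12 ng/ml. From 0 to 0.75 ng/ml they numbered 0 without the deepest cells or with equal weight. The share of all genes was counted only under the reported rule. The changed counts therefore have no background and cannot be read as particular to HoxB. Cells with a HoxB UMI made up 17.2, 69.6, 87.2, 94.7 and 94.0% from FGFRi to 12 ng/ml without thinning, 9.57, 58.5, 81.2, 91.1 and 90.2% at 10000 UMIs, and 49.2 and 82.9% at 0 and 12 ng/ml with at most 5% mitochondrial UMIs. The mean paralog number with equal weight per positive cell differed by 0.97, 0.34, -0.0790, -0.30 along the steps and -0.0348 from 0 to 12 ng/ml (0.46, 0.0454, -0.14, -0.19 and -0.28 as reported), and by -0.22 from 0 to 12 without Hoxb13 and Hoxb1. With resolution 0.5 the caudal epiblast-like log2 ratio of 12 to 0 ng/ml was -0.0626 (0.13 as reported). From FGFRi to 0 ng/ml the levels alone gave 0.88 and the shares alone 3.37 (2.001 and 2.90), and from 0 to 12 ng/ml 0.37 and 0.89 (0.41 and 0.86). From FGFRi, both values for the shares alone used the 0 ng/ml level of the presomitic mesoderm-like cluster, which had no FGFRi cells. Of 225 values of single members, 223 kept their sign and 16 lay outside the reported interval. A reversal was counted only where the reported interval of the ratio excluded 1, and 0 values reversed in this sense. The causes were not tested. With 1 library per condition, no spread between replicates can be given, and counting error is the only error shown. No paired analysis was possible because each condition had 1 library and no test was made.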
